A study of Mus musculus with 2 samples.

Results

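The cells described here were picked out of single-cell RNA profiles of the mouse embryo by the transcripts they carried. A cell was a member when it held at least 1 unique molecular identifier (UMI, 1 counted transcript) of Osr1, at least 1 of Foxf1 and at least 1 of Cldn11 plus Nkx6-1, no UMI of Wnt2 and fewer than 2 of Barx1. In addition, the 7 heart muscle genes Tnnt2, Myl4, Actc1, Ttn, Myh6, Myh7 and Myl7 had to supply less than 1% of its UMIs. Only cells in which 1000 genes or more were detected, and no more than 10% of UMIs were mitochondrial, were considered. It chose 496 of 16780 such cells, and of 17699 cells in all. Because the rule read these genes, their levels describe the choice and are no finding. The cells are called Cldn11/Nkx6-1 cells below.

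Cells came from the pharyngeal apparatus and heart of Swiss Webster embryos at embryonic day (E) 9.5. The control (Ctrl) genotype was Mesp1Cre;Rosa26-GFPflox/+. The conditional knockout (cKO) genotype was Mesp1Cre;Rosa26-GFPflox/+;Tbx1flox/flox. Both thus carried the Mesp1Cre driver, which acts in early mesoderm, and a reporter that turns green where the driver has acted, and live green cells were sorted in both. Each genotype had 1 library here, which the study made from a pair of embryos. The cKO embryos were taken at a somewhat later somite stage than the Ctrl embryos. The study reports a further library of each genotype at this stage, which is not among these samples. With 1 library per genotype there is no replicate check here and no test was possible. Every comparison describes these libraries, in which genotype, stage and library preparation cannot be told apart. Intervals are given at 95% throughout and reflect nothing beyond counting error.

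In the mouse embryo the heart grows by adding cells from the second heart field, a mesoderm behind and above the heart tube. Its posterior end, which feeds the inflow and atria, borders the mesoderm of the foregut and the lung buds. Osr1 and Foxf1 encode transcription factors of this posterior and gut-side mesoderm, and Foxf1 is a target of Hedgehog signalling from the endoderm. Aldh1a2 makes retinoic acid, Cldn11 is a tight junction claudin and Nkx6-1 is a homeobox factor best known from the neural tube and pancreas. Wnt2 marks mesoderm that shares a lineage with the lung, and Barx1 marks stomach and oesophagus mesenchyme. In the RefSeq gene table of the GRCm38 mouse genome Cldn11 lies on chromosome 3 from 31149920 to 31164326, and Nkx6-1 on chromosome 5 from 101659184 to 101664711.

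The label of posterior heart field was only partly borne out by genes outside the rule. Aldh1a2 stood at 294 counts per 1000000 UMIs (CPM, 280 to 309) in the Ctrl members and at 269 CPM (253 to 287) in the cKO members. All other filtered cells had 84.4 and 48.1 CPM of it. Hoxb1, a homeobox gene of the posterior second heart field, stood at 97.9 CPM in Ctrl and 93.7 CPM in cKO members, against 42.3 and 32.2 CPM in other cells. Tbx5, a T-box factor of the inflow and atria, stood at 82.1 and 65.6 CPM, against 35.7 and 23.9 CPM. These 3 genes were all higher in members than in other cells of the same library.

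The general heart field factors went the other way. Isl1, the classical second heart field marker, stood at 37.97 CPM in Ctrl and 24.9 CPM in cKO members, below the 84.8 and 53.5 CPM of other cells. Gata4 reached only 2.18 CPM (12 UMIs) and 2.55 CPM (9 UMIs), against 28.5 and 24.9 CPM. Hand2 stood at 4.91 and 7.07 CPM, against 48.5 and 42.3 CPM, and Nkx2-5 at 1.82 and 1.41 CPM, against 8.48 and 11.2 CPM. Tbx20 had no UMI in 286 Ctrl members and 2 UMIs in 210 cKO members. Of the 16 heart field transcription factors listed, 3 were higher in members than in other cells in Ctrl and 4 in cKO. Thus the cells are described here by their rule and leading genes.

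**Figure D1:**
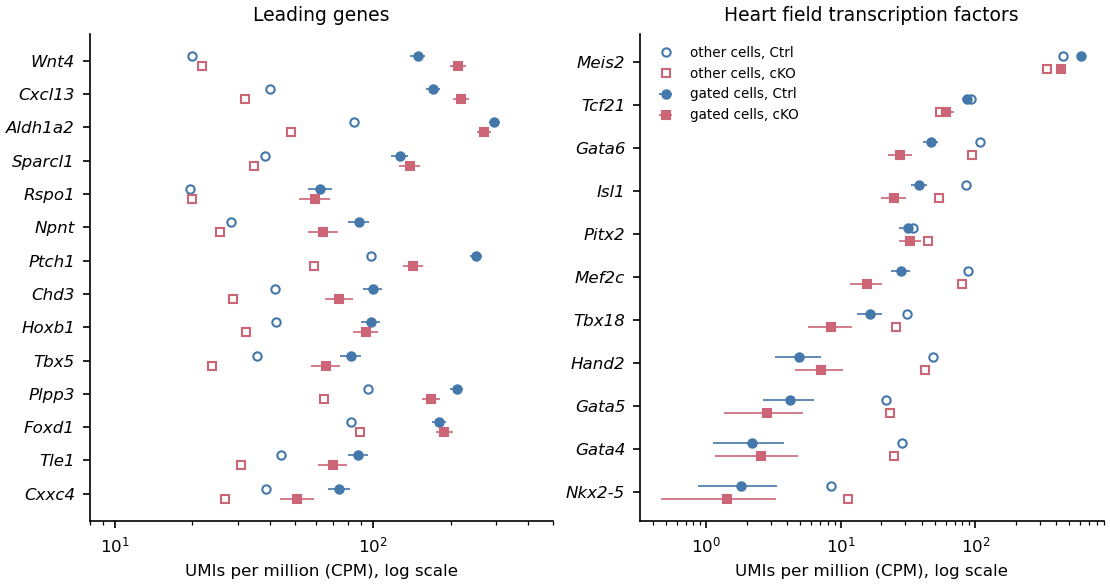
Levels in CPM (x axes, log scale) of genes that led Cldn11/Nkx6-1 cells over other cells (left) and of 11 heart field transcription factors (right), with filled symbols for gated cells, open symbols for all other filtered cells, circles for Ctrl and squares for cKO, and 95% Poisson intervals of the gated cells. The leading genes lie to the right of the open symbols in both libraries, while Isl1, Gata6, Mef2c, Hand2, Gata5, Gata4 and Nkx2-5 lie to the left of them.

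The leading genes outside the rule, named by their ratio to other cells in the library where that ratio was smaller, included Wnt4, Cxcl13, Aldh1a2, Sparcl1, Rspo1, Npnt, Ptch1, Chd3, Hoxb1, Tbx5, Plpp3, Foxd1, Tle1 and Cxxc4. Wnt4, a signalling ligand of kidney and gonad mesenchyme, stood at 149 CPM (139 to 160) in Ctrl and 213 CPM (198 to 229) in cKO members, and at 19.99 and 21.7 CPM in other cells. Cxcl13, a chemokine, stood at 171 and 220 CPM, against 39.8 and 31.9 CPM. Rspo1, which raises the response to Wnt ligands, stood at 62.3 and 59.4 CPM, against 19.6 and 19.9 CPM. Ptch1, a Hedgehog receptor and target, stood at 251 and 143 CPM, against 98.4 and 59.3 CPM. Foxd1, a forkhead factor of kidney stroma, stood at 181 and 189 CPM, against 82.2 and 89.1 CPM. The list therefore joins a retinoic acid enzyme, a Wnt ligand, a Wnt potentiator and a Hedgehog target. Ranking by the smaller ratio means that each gene was high in both libraries.

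Markers of other cell types were lower in members than in other cells for some types and higher for others. After thinning each cell to 5000 UMIs, Wnt4 was seen in 42.7% of Ctrl and 58.6% of cKO members, in none of the cardiomyocytes (cells with at least 5% heart muscle UMIs, 65 and 167 thinned cells, which allows up to 4.62% and 1.80%) and in 8.64% and 8.73% of endothelial cells. Aldh1a2 was seen in 66.8% and 71.4% of members, against 1.54% and 1.20% of cardiomyocytes. Without thinning the shares of members were 71.0% and 80.0% for Wnt4, and 94.1% and 93.3% for Aldh1a2. The members had medians of 18182.5 UMIs per cell in Ctrl and 14575.5 in cKO, and the cardiomyocytes had 15881 and 14740.5. The 9 endothelial markers summed to 10.2 and 24.0 CPM in members, against 145 and 85.7 CPM in other cells. The 8 epicardium and proepicardium genes summed to 28.0 and 20.1 CPM, against 74.8 and 58.6 CPM. The 10 neural and neural crest genes summed to 9.81 and 16.7 CPM, above the 8.34 and 12.4 CPM of other cells, and 6 of them had no UMI in any member. Tubb3, a tubulin of neurons, alone gave 9.08 and 16.4 CPM of those sums. The 11 endoderm and ectoderm genes summed to 32.3 and 8.49 CPM, against 19.1 and 17.4 CPM, and 5 of them had no UMI in any member. The 7 genes of intermediate mesoderm and kidney summed to 168 and 230 CPM, against 40.8 and 43.6 CPM. Wnt4 alone gave 149 and 213 CPM of those sums, Pax2 had no UMI in any member, and only Wnt4 and Gdnf of the 7 were higher in members than in other cells. The part of such cells in the results was not tested.

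Haemoglobin separated the libraries. Hbb-y, an embryonic globin, had 1 UMI in Ctrl and 291 UMIs in cKO members (82.3 CPM), while other cells held 4.12 and 4888 CPM of it. Of the cKO members, 144 held at least 1 Hbb-y UMI and no member more than 8. Its part in the results below was not tested. Doublets, scored in each library, were presumed for 2.45% of Ctrl and 10.5% of cKO members. Over all filtered cells these shares were 5.61% and 7.82%, fixed beforehand by a rate that rises with the number of cells. Of the members, 3.15% and 4.29% carried 2 or more UMIs both of Xist and of Y-linked genes, against 3.47% and 3.95% of all filtered cells. The libraries shared 15 cell barcodes, and 1 member carried a barcode of the other library.

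Members made up a smaller share of the cKO library. They were 286 of 7007 filtered cells in Ctrl, or 4.08% (3.63 to 4.57, Clopper-Pearson), and 210 of 9773 in cKO, or 2.15% (1.87 to 2.46). The cKO share was 0.526 times the Ctrl share (0.442 to 0.627). Cells of different sex come from different embryos, so the sexes give a look inside each pool. Among cells with Xist and no Y-linked UMI the shares were 4.54% and 2.13%, and among cells with Y-linked UMIs and no Xist they were 3.64% and 2.43%, a ratio of 0.669 (0.495 to 0.905). The direction was the same in both, and the gap was narrower in the Y-positive cells.

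The libraries also differed in depth, with medians of 17308 UMIs per filtered cell in Ctrl and 14684 in cKO. After every filtered cell was thinned to 5000 UMIs before the rule was applied, 70 of 6934 Ctrl cells (1.01%) and 65 of 9673 cKO cells (0.672%) met it, a ratio of 0.666 (0.476 to 0.932). Thus the cKO share was also the lower at equal depth, and the interval of that ratio included the 0.526 found from all UMIs. Neighbouring cells defined by the same genes were compared in the same way. The Wnt2-positive cells, which differ from members only in carrying Wnt2, numbered 299 (4.27%) in Ctrl and 259 (2.65%) in cKO, a ratio of 0.621 (0.527 to 0.731). The Barx1-positive cells, with Osr1, Foxf1 and at least 2 Barx1 UMIs, numbered 239 and 278, a ratio of shares of 0.834 (0.703 to 0.989). Osr1 Foxf1 cells without Cldn11, Nkx6-1 or Wnt2 numbered 142 and 174, a ratio of 0.879 (0.705 to 1.09). The interval of the members' ratio lay below those of the Barx1-positive and marker-negative cells at full depth. At equal depth the 4 ratios were 0.666, 0.544, 0.641 and 0.803, with intervals that overlapped.

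**Figure D2:**
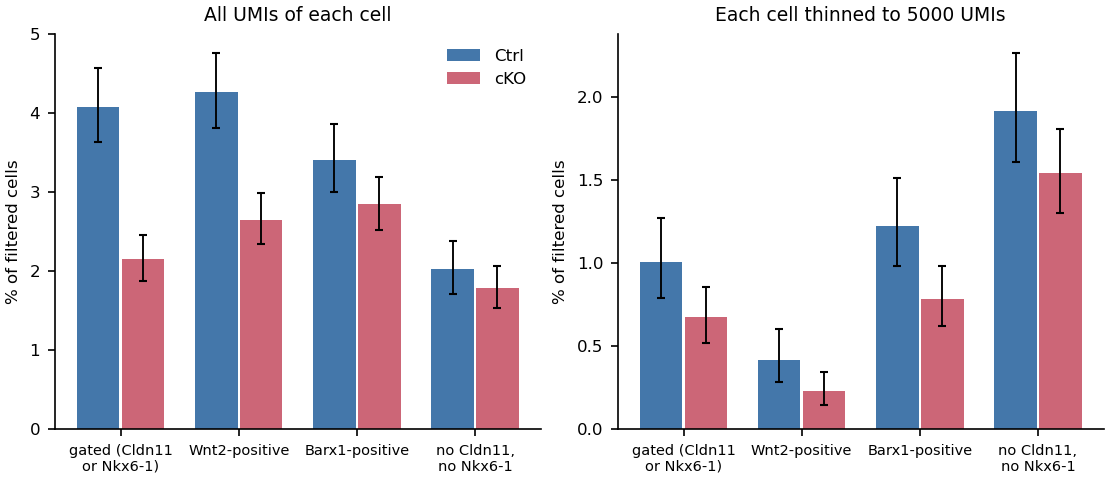
Share of filtered cells (y axes, percent) in the Cldn11/Nkx6-1 gate and in 3 neighbouring gates, with 95% Clopper-Pearson intervals, for Ctrl (blue) and cKO (red), from all UMIs (left) and after each cell was thinned to 5000 UMIs (right). Gated cells go from 4.08% in Ctrl to 2.15% in cKO on the left and from 1.01% to 0.672% on the right.

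Step by step, 21.99% of filtered Ctrl cells and 19.1% of cKO cells held Osr1. Of these, 78.3% and 66.4% also held Foxf1. Of the Osr1 Foxf1 cells, 51.7% and 41.8% held Cldn11 or Nkx6-1, and of those 49.4% and 43.7% were free of Wnt2. At equal depth the step from Osr1 to Foxf1 was 58.3% against 49.6%, a difference of -8.65 points (-13.6 to -3.70). The step to Cldn11 or Nkx6-1 was 24.8% against 21.0%, a difference of -3.83 points (-9.52 to 1.87), so that step alone was not separable from counting error there.

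Many members sat close to the edge of the rule. Exactly 1 UMI of Cldn11 plus Nkx6-1 had been counted in 110 Ctrl members (38.5%) and 83 cKO members (39.5%). Just outside, 101 Ctrl and 94 cKO cells failed only for a single Wnt2 UMI. By contrast, the limit on heart muscle genes cut through empty ground. The highest member had 0.0718% heart muscle UMIs in Ctrl and 0.111% in cKO, and the nearest cells outside had 1.46% and 1.85%.

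Next, the members were split by which of the 2 rule genes had let them in. Cldn11 without Nkx6-1 was found in 161 Ctrl members (56.3%, 50.3 to 62.1) and 95 cKO members (45.2%, 38.4 to 52.2), a difference of -11.1 points (-19.9 to -2.20). Nkx6-1 without Cldn11 was found in 75 (26.2%) and 58 (27.6%), and both genes in 50 (17.5%) and 57 (27.1%). These classes were cut from the rule genes and are values of the choice. After thinning before the rule Cldn11-only cells were 30 of 70 in Ctrl (42.9%) and 23 of 65 in cKO (35.4%), a difference of -7.47 points (-23.9 to 8.94) that was not separable from counting error. Among Xist-positive members the difference was -10.3 points (-22.2 to 1.65) and among Y-positive members -5.97 points (-21.2 to 9.30), and the interval included 0 in 5 of 10 alternatives in all.

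Among the better measured genes, few set the Cldn11-only and Nkx6-1-only cells apart. Among 2771 genes measured in these classes (at least 50 CPM and 30 UMIs in either class of each library), 2 were at least 2-fold higher in Cldn11-only than in Nkx6-1-only cells in both libraries (0.0722%) and 1 was at least 2-fold lower (0.0361%). The former were Irx3, an Iroquois homeobox gene, and Lix1. Irx3 stood at 66.7 CPM in Cldn11-only and 13.5 CPM in Nkx6-1-only cells of Ctrl, and at 50.3 and 18.5 CPM in cKO. Lix1 stood at 58.1 and 26.2 CPM in Ctrl, and at 79.0 and 32.2 CPM in cKO. The gene lower in both was Ifitm1, an interferon-induced membrane protein gene, at 32.6 and 128 CPM in Ctrl and 47.0 and 98.5 CPM in cKO. Of the listed genes below that minimum, Grem1, Hapln1 and Tbx1 were also more than 2-fold higher in Cldn11-only cells of both libraries, and they were chosen after their values were seen. Grem1, a BMP inhibitor, had 92 UMIs in Cldn11-only and 3 in Nkx6-1-only cells of Ctrl, a log2 ratio of 3.71 (2.12 to 6.01), and 16 and 1 UMIs in cKO, a ratio of 3.42 (0.74 to 8.81). The same direction in both libraries was seen for Twist1, Prrx1, Cnn2, Cyp51, Zmiz1 and Nes on the Cldn11 side, and for Msc, Hoxa4, Tbx5, Dst, Ndn, Rspo1 and Arl4a on the Nkx6-1 side. Prrx1, a homeobox gene of limb and body-wall mesenchyme, was higher by 1.502 on the log2 scale (1.11 to 1.91) in Ctrl and by 0.54 (0.06 to 1.02) in cKO. Tbx5 stood at 55.2 CPM in Cldn11-only and 117 CPM in Nkx6-1-only cells of Ctrl, and at 41.8 and 73.1 CPM in cKO.

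Against the neighbouring cells, members were close to the Wnt2-positive cells and further from the Barx1-positive ones. Over the Wnt2-positive cells, 0 of 2753 genes were at least 2-fold higher in both libraries and 4 were at least 2-fold lower (0.145%). These 4 were Isl1, Bmp4, Gyg and Gata6. Isl1 stood at 37.97 CPM in members and 97.8 CPM in Wnt2-positive cells of Ctrl, and at 24.9 and 67.3 CPM in cKO. Bmp4, a ligand of the BMP pathway, stood at 36.3 and 74.4 CPM in Ctrl, and at 20.1 and 58.1 CPM in cKO. The genes furthest the other way were Cxcl12, Col26a1, Prrx1, Ebf1, Rnd3, Npnt, Ccnd2 and Hoxb1. Cxcl12, a chemokine, stood at 161 and 87.2 CPM in Ctrl, and at 155 and 78.8 CPM in cKO.

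Over the Barx1-positive cells, 15 of 2757 genes were at least 2-fold higher in both libraries (0.544%) and 17 at least 2-fold lower (0.617%). Wnt4 led the former, with 149 CPM in members and 17.6 CPM in Barx1-positive cells of Ctrl, and 213 and 34.6 CPM in cKO. Sparcl1, a matricellular protein gene, followed with 127 and 15.1 CPM in Ctrl, and 139 and 26.8 CPM in cKO. Next came Cxcl12, Foxd1, Npnt, Foxc1, Pdlim4 and Aldh1a2. Isl1 was lowest relative to them, with 267 CPM in Barx1-positive cells of Ctrl and 199 CPM in cKO, followed by Ifitm1, Tox3, Gata6, Itm2a, Tmem158, Dpysl3 and Plagl1. Over the Osr1 Foxf1 cells without Cldn11, Nkx6-1 or Wnt2, 0 of 2745 genes were at least 2-fold higher and 3 at least 2-fold lower (0.109%). The latter were Tnni1, Bmp4 and Isl1. Tnni1, a troponin of early heart and muscle that is not in the rule, stood at 13.1 CPM in members and 52.0 CPM in those cells of Ctrl, and at 13.01 and 73.2 CPM in cKO. Wnt4, Foxd1, Cxcl13, Nr2f1, Tbx5, Aldh1a2, Prrx1 and Hoxb1 were the highest in members there, at less than 2-fold.

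Between the genotypes, the targeted gene was read first. Tbx1 had 102 UMIs in Ctrl members (18.5 CPM) and 110 UMIs in cKO members (31.1 CPM), and other cells held 27.3 and 44.4 CPM. The UMIs come from the 3′ end of the transcript, whereas the loxP sites flank part of the gene, so these counts do not check the deletion. In cKO members the Tbx1 UMIs lay in 41 cells, up to 12 in a cell, and in Ctrl members in 70 cells, up to 5 in a cell. The 5 highest cells held 31.8% and 17.6% of them. No order is read from these levels, since the log2 ratio of 0.75 turned to -0.16 in Xist-positive cells. After thinning before the rule it was -1.89, from only 4 and 1 UMIs.

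Few genes lay far apart between the libraries. Among the 3104 genes that reached 50 CPM and 30 UMIs in either library, 9 were at least 2-fold higher in cKO members (0.29%) and 16 at least 2-fold lower (0.515%). With scaling by the trimmed mean of M values in place of library totals the counts were 11 and 7. The median log2 ratio of cKO over Ctrl was -0.04 in members and -0.05 in other cells. All 9 and all 16 genes had the same direction in the other cells, and 6 and 6 of them were also past 2-fold there. Both sexes of members had that direction too. The members of each sex are among the cells by which these genes were chosen, so this was largely set by the choice and is no support. Of the 9 and the 16, 6 and 8 were past 2-fold in both sexes of members. After thinning before the rule 7 and 9 were past it. In Xist-positive members Exosc9 stood at 0.87, Fn1 at -0.78, Nhs at -0.56 and Tshz1 at -0.81, and in Y-positive members Gm8730 stood at 0.41 and Dlk1 at 0.95.

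The genes higher in cKO members were led by housekeeping genes and pseudogenes. Ubb, a ubiquitin gene, stood at 98.7 CPM in Ctrl and 904 CPM in cKO members, a log2 ratio of 3.195 (3.06 to 3.33), and the ratio in other cells was 3.14. The size was not the same in the sexes, with 97.8 and 1291 CPM in Xist-positive members (3.72, 3.55 to 3.899) and 105 and 344 CPM in Y-positive members (1.71, 1.45 to 1.963). Other cells had 3.65 and 1.63 in the same sexes. Gm10076, Gm10260 and Gm8730 are gene models whose reads can be shared with near-identical ribosomal copies, and Hist1h2ap and Hist1h2ae belong to a multigene histone family, so their counts are uncertain. Phgdh, which opens serine synthesis, stood at 62.7 CPM in Ctrl and 183 CPM in cKO, with a log2 ratio of 1.54 (1.35 to 1.74) against 1.43 in other cells. Polr2l and Exosc9 were the remaining housekeeping genes, at 1.07 and 1.03.

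Dlk1 was further apart in members than in other cells when all UMIs were used. Dlk1, an imprinted Notch-related ligand of undifferentiated mesenchyme, stood at 148 CPM (138 to 158) in Ctrl and 308 CPM (290 to 326) in cKO members, while other cells held more, 365 and 472 CPM. Its log2 ratio of 1.06 exceeded the 0.37 of other cells by 0.69 (0.55 to 0.82). Among cells that met the rule after thinning the ratio was 0.70 (0.18 to 1.23), from 53 and 80 UMIs, no longer 2-fold. Its interval included both the 1.06 from all UMIs and the 0.37 of other cells. The ratio was 0.78 in the Wnt2-positive cells, 0.45 in the Barx1-positive cells, 0.85 in those without Cldn11, Nkx6-1 and Wnt2, and 1.07 in endothelial cells. It was thus not particular to the members. Within members it was 1.40 (1.21 to 1.59) in Cldn11-only and 0.78 (0.51 to 1.06) in Nkx6-1-only cells.

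Genes lower in cKO members included signalling, adhesion and matrix genes. Wnt5a, a ligand of the non-canonical Wnt pathway, stood at 112 CPM (104 to 121) in Ctrl and 34.8 CPM (28.9 to 41.5) in cKO members, a log2 ratio of -1.69 (-1.98 to -1.41). The ratio in other cells was -1.64. Wnt5a was seen in 33.6% of thinned Ctrl and 12.4% of thinned cKO members, against 9.23% and 3.59% of cardiomyocytes. Among the neighbours its log2 ratio was -0.96 (-1.24 to -0.68) in Wnt2-positive cells, -1.91 (-2.26 to -1.56) in cells without Cldn11 and Nkx6-1, and -0.07 (-0.51 to 0.37) in Barx1-positive cells, where its level was 15.7 CPM in Ctrl. Rdh10, the retinol dehydrogenase that feeds Aldh1a2, stood at 63.9 CPM in Ctrl and 23.5 CPM in cKO members, with a log2 ratio of -1.45 (-1.81 to -1.10), against -1.05 in other cells.

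Flrt2, a transmembrane guidance and adhesion protein gene, stood at 50.3 and 18.4 CPM. Its log2 ratio of -1.45 was below the -0.55 of other cells by -0.90 (-1.29 to -0.51). Among cells that met the rule after thinning it was -0.48 (-2.25 to 1.18), from 9 and 6 UMIs. That interval included both the -1.45 from all UMIs and the -0.55 of other cells. The thinned counts are thus too few to decide whether either gap remained. Fn1, which encodes the matrix protein fibronectin, stood at 143 CPM in Ctrl and 69.0 CPM in cKO, with a log2 ratio of -1.05 (-1.26 to -0.84), against -1.24 in other cells. Tshz1, a zinc finger factor, stood at 130 and 58.8 CPM, and Clic4, an intracellular chloride channel gene, at 144 and 64.8 CPM. Atad2, Nhs and Gm26735 completed the lowest 10 with Tpm3-rs7, at log2 ratios of -1.20, -1.06, -1.16 and -4.70. Atad2 stood at -0.60 and Gm26735 at -0.37 after thinning before the rule. Tpm3-rs7 is a tropomyosin-related sequence, with 850 UMIs in Ctrl and 21 in cKO members and the same gap (-4.59) in other cells, and reads shared with Tpm3 make its count uncertain.

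**Figure D3:**
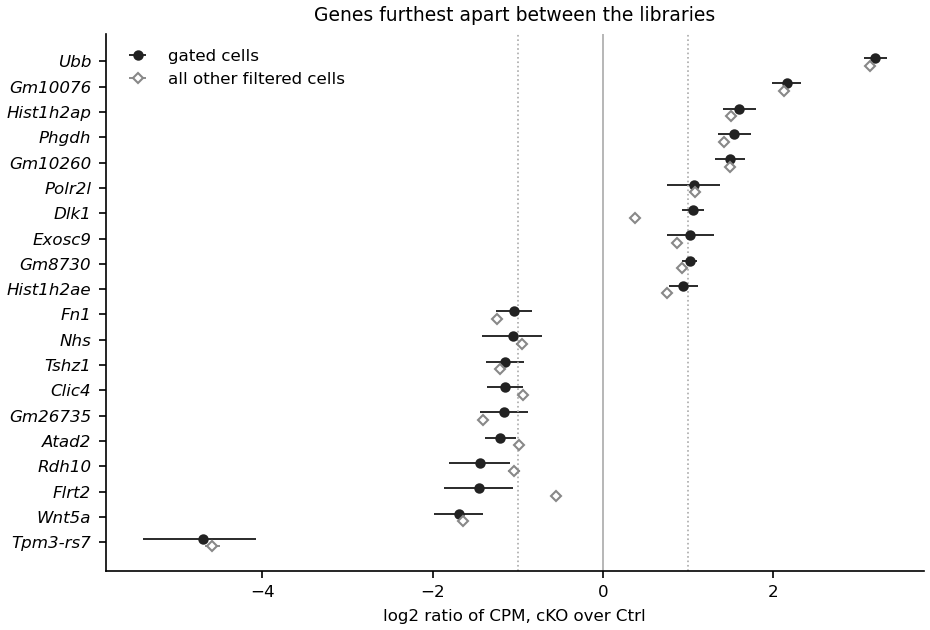
Log2 ratio of cKO over Ctrl (x axis, CPM) for the 10 highest and 10 lowest genes in Cldn11/Nkx6-1 cells (black circles) and in all other filtered cells (grey diamonds), with 95% exact conditional intervals and dotted lines at 2-fold. Most diamonds lie beside their circles, and Dlk1 (1.06 against 0.37) and Flrt2 (-1.45 against -0.55) lie apart.

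The retinoic acid genes, read as a list, were lower in cKO members with an exception at Aldh1a2. Of 9800 genes with at least 30 UMIs over both libraries, 62.1% were lower in cKO by any amount, 3.64% were at least 2-fold lower and 0.847% at least 2-fold higher, with a median log2 ratio of -0.12. The interval of the ratio lay below 0 for 24.5% of them and above 0 for 11%. Of the 12 retinoic acid genes that reached 30 UMIs, 10 were lower, 6 of them with an interval below 0 and 2 (Rdh10 and Rarg) at least 2-fold, with a median of -0.49 against -0.45 in other cells. No alternative gave a lower median, and it came to -0.15 after thinning before the rule and -0.10 in Xist-positive cells. Aldh1a2 itself had a log2 ratio of -0.13 (-0.25 to -0.01) in members and -0.81 in other cells, a difference of 0.68 (0.56 to 0.81), and in members it was 0.11 in the Xist-positive cells. The receptor genes Rara and Rarb stood at 23.8 and 14.2 CPM and at 37.4 and 25.7 CPM, lower in cKO.

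Hedgehog genes were lower almost throughout. Of 12 genes, 11 were lower in cKO members, 6 with an interval below 0, with a median log2 ratio of -0.64 against -0.74 in other cells, and from -0.80 to -0.30 over the alternatives. Ptch1 stood at 251 CPM in Ctrl and 143 CPM in cKO members, a log2 ratio of -0.81 (-0.96 to -0.66). Gli1, a target and effector of the pathway, stood at 16.7 and 8.49 CPM, and Gli3, which mainly acts as its repressor, at 65.6 and 38.8 CPM. Foxl1, a forkhead gene of gut mesenchyme, was the exception at 16.5 and 17.8 CPM.

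FGF ligands had few UMIs in the cKO members. Fgf8 had 46 UMIs in Ctrl and 3 in cKO, a log2 ratio of -3.30 (-5.63 to -1.66). Fgf10 had 61 and 8 UMIs, a ratio of -2.29 (-3.57 to -1.22), and in other cells it was -1.53. After thinning before the rule Fgf10 had 4 and 3 UMIs, a ratio of -0.31, and Fgf8 had 2 and 0 UMIs. Of the 8 FGF pathway genes with 30 UMIs, 7 were lower and 3 at least 2-fold lower, with a median of -0.78 against -0.80 in other cells, and from -0.88 to -0.64 over the alternatives. The receptor gene Fgfr2 stood at 65.9 and 36.8 CPM, and Spry2, a feedback inhibitor, at 27.6 and 11.03 CPM. Dusp6, another feedback gene, was the exception at 12.2 and 17.5 CPM.

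The BMP genes were divided. Of 12 genes, 6 were higher and 6 lower in cKO members, with a median of -0.07. Over the alternatives this median ran from -0.67 in Y-positive cells to 0.21 with no CPM minimum, and it kept its sign in 11 of 16, turning positive with trimmed-mean scaling among others. Id1 and Id3, targets of BMP signalling, stood at 82.8 and 131 CPM and at 267 and 317 CPM, and in cKO 5 cells held 25.6% of the Id1 UMIs. Id2 of the same family went the other way, at 269 and 193 CPM. The ligand Bmp4 stood at 36.3 and 20.1 CPM. The inhibitors Smad6 (55 and 11 UMIs) and Grem1 (102 and 19 UMIs) were at least 2-fold lower, at -1.68 and -1.79. Of the 10 non-canonical Wnt and polarity genes 8 were lower, with a median of -0.41, and the 2 exceptions were Wnt4 and Wnt11. Wnt4 had a log2 ratio of 0.52 (0.37 to 0.66) in members and 0.12 in other cells. Of 7 canonical Wnt genes 4 were lower, a share near that of all genes, with a median of -0.44 that turned to 0.14 after thinning before the rule. Aplnr, the apelin receptor, had 67 UMIs in Ctrl members and none in cKO members, at least 14.3-fold lower against 3 counts of that library.

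Hox genes, which mark position along the body axis, had no common direction in members. Of 11 Hox genes with 30 UMIs, 6 were higher and 5 lower in cKO members, with a median of 0.07, whereas their median in other cells was -0.56. Hoxb4 stood at 96.7 and 91.4 CPM in members, and at 72.2 and 43.8 CPM in other cells. Hoxb1 had a log2 ratio of -0.06 (-0.27 to 0.14). Hoxb3 and Hoxa3 were lower, at -0.86 (-1.15 to -0.59) and -0.76 (-1.15 to -0.39). The sign of this median turned when Foxf1 was not required, with 2 UMIs of Cldn11 plus Nkx6-1 and in Y-positive cells.

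Of 11 heart field transcription factors, 9 were lower, with a median of -0.51 against -0.28 in other cells. Isl1 had a log2 ratio of -0.61 (-0.98 to -0.24), Gata6 of -0.75 (-1.10 to -0.40) and Mef2c, a myocyte factor, of -0.84 (-1.31 to -0.38). Matrix genes were lower in 13 of 16, with a median of -0.48, while Sparc, a collagen-binding matrix gene, stood at 79.9 and 126 CPM. Of 14 S phase genes 11 were lower in cKO members, 6 with an interval below 0, with a median of -0.16 against -0.09 in other cells. Of 14 G2 and M phase genes 10 were higher, 7 with an interval above 0, with a median of 0.14 against 0.00336 in other cells. The sign of both medians turned after thinning before the rule. The epithelial junction and polarity genes were lower in 11 of 15, 6 with an interval below 0, with a median of -0.42 against -0.56 in other cells. Among the lower genes was Prkci, a polarity kinase, at 24.2 and 10.8 CPM. The other 4 were higher, 3 with an interval above 0 and 1 at least 2-fold. Smooth muscle genes had a median of -0.01 over 5 genes, which kept its sign in 7 of 16 alternatives.

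**Figure D4:**
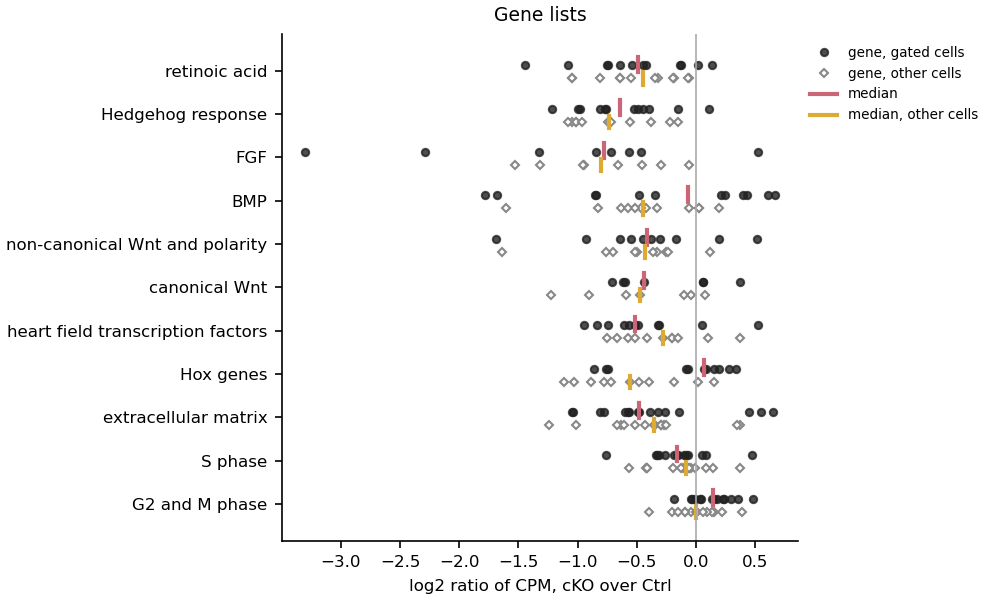
Log2 ratio of cKO over Ctrl (x axis) for each gene with at least 30 UMIs in 11 gene lists, as black circles for Cldn11/Nkx6-1 cells and grey diamonds for other cells, with red and yellow bars at the medians. The red bars lie left of 0 for retinoic acid, Hedgehog and FGF genes (-0.49, -0.64 and -0.78), and the Hox genes have medians of 0.07 and -0.56.

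The spread of genes over the members was read from thinned counts. In cells thinned to 5000 UMIs the variance over the mean had a median of 1.05 in Ctrl and 1.04 in cKO. It was taken over 3116 genes with a mean of at least 0.2, and counting alone gives about 1. At so few UMIs per cell counting error dominates, so these medians cannot show whether most genes were evenly spread. Beside Malat1, a nuclear RNA, the most uneven was Tagln, a smooth muscle actin-binding gene, at 4.98 and 4.19. It was seen in 15.4% and 15.7% of members. Cxcl13 (2.34 and 3.46), Dlk1 (2.05 and 2.69), Id1 (2.17 and 2.18), Igfbp5 (2.82 and 1.84) and the mitotic gene Ube2c (2.26 and 3.45) were also uneven in both libraries.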

How the data were processed

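The libraries were 10x Genomics 3′ single-cell RNA profiles of sorted E9.5 cells, 1 per genotype. The authors aligned reads to mm10 and counted with Cell Ranger 3.1.0 (submitters' processing notes). The deposited values are raw UMI counts for 27998 genes in barcodes called as cells, 7418 in Ctrl and 10281 in cKO, with no further normalization. Filters left 7007 and 9773 cells, with medians of 17308 and 14684 UMIs. Scrublet, run separately on the libraries in scanpy 1.11.5, scored doublets. With its default threshold 0 Ctrl cells were called, so the highest scores at 0.8% per 1000 cells (393 and 764 cells) were presumed doublets and removed only in an alternative. UMIs were summed over members per library (5504567 and 3534411) and divided by the total (CPM), and 3 counts, the limit a count of 0 allows, were 0.545 and 0.849 CPM. CPM carry exact Poisson, ratios exact conditional and shares Clopper-Pearson intervals. Intervals of differences and of ratios of shares are approximate. Thinning drew 5000 UMIs per cell without replacement and left out 73 and 100 shallower cells (no member was shallower). The cardiomyocyte background comprised 66 and 168 cells, and the endothelial gate (at least 2 Cdh5 UMIs and 2 of Pecam1 plus Kdr) 304 and 260. The scripts were tested on simulated counts. Trimmed-mean factors came from edgeR 4.0.16 under R 4.3.3, used for scaling only.

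Named genes were, without mitochondrial, ribosomal, haemoglobin, Xist, Tsix, Y-linked and rule genes, the 10 highest and 10 lowest between the libraries, the 15 leading over other cells and the 8 furthest each way in each contrast with neighbours, with listed genes summarised by list. Some genes that this rule names are not reported here. The members and lists were chosen with earlier results of these data known. Coordinates are from the RefSeq table of GRCm38.p6.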

Additional observations from a re-analysis of the deposited data

Results flagged for a closer look

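The listed genes and those named between the libraries were searched for opposite ratios in the sexes. Of these many genes, only Tnni1 and Tagln went opposite ways with intervals of counting error on opposite sides of 0. The difference itself was not tested. Tnni1 had a log2 ratio of cKO over Ctrl of 1.12 (0.22 to 2.03) in Xist-positive members, with 21 and 25 UMIs, and of -1.14 (-2.26 to -0.14) in Y-positive members, with 37 and 11 UMIs. In Ctrl, a single member held 16 of the 72 Tnni1 UMIs. Tagln had a log2 ratio of -0.38 (-0.69 to -0.07) in Xist-positive members, with 291 and 123 UMIs, and of 1.55 (1.09 to 2.01) in Y-positive members, with 62 and 119 UMIs. The 5 highest members held 41.5% of the Tagln UMIs in Ctrl and 53.8% in cKO, and a single member held 53 of 427 and 50 of 273. Over all members both stood near 0, at -0.01 for each gene.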

How the results depend on the processing

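No paired analysis was possible because each genotype had 1 library. The cKO to Ctrl ratio of the members' shares stayed below 1 under all 10 alternatives, from 0.470 to 0.669, with 0.666 after thinning and 0.669 in Y-positive cells. The difference in the Cldn11-only share was negative in all 10, from -11.99 to -5.97 points, but its interval included 0 in 5 of them: after thinning, with no Foxf1 requirement, with 2 UMIs of Osr1 and Foxf1, and in Xist-positive and Y-positive cells. The counts of genes at least 2-fold higher and lower (9 and 16) became 21 and 48 after thinning, 17 and 66 in Y-positive cells, 22 and 76 with a minimum of 20 CPM, and 1333 and 2270 with no CPM minimum. The lower count became 29 with 2 UMIs of Osr1 and Foxf1, and 7 with either trimmed-mean or median-of-ratios scaling. Fewer UMIs per gene enter the thinned and Y-positive sums. Of 43 genes followed through 15 or 16 alternatives each, 39 kept their sign in every run that gave them a value. Aldh1a2 turned to 0.000316 without presumed doublets, 0.0104 with 2 UMIs of Osr1 and Foxf1, and 0.11 in Xist-positive cells. Tbx1 turned to -1.89 after thinning and -0.16 in Xist-positive cells, and Msc to -0.45 in Y-positive cells. Hoxb1, at -0.06, kept its sign in 10 of 16 and ranged from -0.21 to 0.29. The cause was not tested. Depth limits what thinned cells show, since Flrt2, Fgf10 and Tbx1 then had 9, 4 and 4 UMIs in Ctrl and 6, 3 and 1 in cKO.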

Other observations

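Of the listed groups, some genes such as Nkx2-3, Tlx1 and Emcn were seen in the cKO members alone or nearly so, and others in both or in neither. Nkx2-3, a homeobox gene of gut and spleen mesenchyme, had no UMI in Ctrl and 16 in cKO members, at least 8.31-fold higher against 3 counts. It had 0.72 and 6.39 CPM in other cells, so the direction was shared. The 16 UMIs lay in 6 members, and 5 of these held 93.8%. Tlx1, a homeobox gene of the spleen and pharyngeal arches, had 2 and 20 UMIs, in 2 and 9 members, a log2 ratio of 3.96 (1.92 to 7.10), whereas in other cells it was -1.002. The 5 highest cKO members held 80.0% of its UMIs. Msc had 266 and 234 UMIs, at 48.3 and 66.2 CPM. Other cells held 12.1 and 14.1 CPM of it. Myod1, the muscle determination gene, had no UMI in any member, and Lhx2, a homeobox gene of the same arch muscle progenitors, had 8 and 3 UMIs. Of the endothelial genes, Kdr had 11 and 27 UMIs and Emcn 0 and 17. In cKO a single member held 14 of the Kdr UMIs and 5 held 88.9%, and Emcn lay in 4 members, up to 7 UMIs in a cell.

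Claudins other than Cldn11 were scarce. Of 22, 14 had no UMI in any member, and all of them together came to 19.4 CPM in Ctrl and 10.8 CPM in cKO members, while Cldn11 alone stood at 87.6 and 68.5 CPM. Cldn12 had 52 and 10 UMIs and Cldn10 47 and 21. The level of Cldn11 was set by the rule.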
